A study of Mus musculus with 6 samples.

Results

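The 8 genes described here, *Hnf4a*, *Hnf4g*, *Cdx1*, *Cdx2*, *Gata4*, *Gata6*, *Pdx1* and *Elf3*, encode transcription factors that set or maintain the identity of the small intestinal epithelium. They were taken by symbol from a table of 20409 features counted in bulk RNA-seq of duodenal villus epithelium. All 8 were in the table, and all 8 were among the 13346 genes that passed the filter on low counts. Libraries came from 3 double mutant (DM) mice, labelled Smad4 knockout and beta-catenin GOF (gain of function), and from 3 wild-type (WT) mice, labelled Wildtype. Each group held 2 females and 1 male, and the male was mouse 1 in both. By the study's methods, the DM mice carried Smad4 fl/fl, a Ctnnb allele with 1 floxed exon 3 copy and Villin-CreERT2 on a C57BL6-enriched background. Villin-CreERT2 acts throughout the intestinal epithelium, and tamoxifen was injected at 0.05 g/kg on 4 consecutive days. Villi were compared at 7 days after induction. The WT mice were uninjected littermates, matched for age and sex, so the mutation and the tamoxifen cannot be told apart. The ages and the alleles that the controls carried are not given in the sources used here.

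HNF4A and HNF4G are closely related nuclear receptors that together keep enterocytes differentiated and switch on genes of lipid handling and of the brush border. CDX2 and its relative CDX1 are caudal-type homeobox factors. CDX2 specifies intestine as opposed to stomach in the embryo and holds that identity in the adult. GATA4 and GATA6 are zinc finger factors, and GATA4 distinguishes the proximal small intestine from the ileum. PDX1 is a homeobox factor of the pancreas and duodenum, and ELF3 is an epithelium-specific ETS factor needed for the maturation of the intestinal lining.

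Of the 8 factors, *Hnf4a*, *Cdx2*, *Pdx1* and *Elf3* had a promoter in the RefSeq table used here (GRCm38.p6). The 2 starts of *Hnf4a*, known as the distal P2 and the proximal P1 promoter, lie 40.3 kb apart and give different first exons, which a count per gene adds together. The 250 bases before both starts are shown for that reason, and those of *Cdx2* because *Cdx2* is the factor that the study also stained. The P2 stretch is chr2:163506607-163506856 (plus strand), the P1 stretch chr2:163546905-163547154 (plus strand) and the *Cdx2* stretch chr5:147307250-147307499 (minus strand). Capitals mark the matches, on either strand, to the motifs searched.
Hnf4a P2: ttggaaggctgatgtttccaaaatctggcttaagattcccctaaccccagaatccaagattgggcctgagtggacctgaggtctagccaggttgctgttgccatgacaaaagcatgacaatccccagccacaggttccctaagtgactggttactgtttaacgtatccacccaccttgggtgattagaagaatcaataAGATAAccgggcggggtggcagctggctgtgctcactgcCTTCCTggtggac
Hnf4a P1: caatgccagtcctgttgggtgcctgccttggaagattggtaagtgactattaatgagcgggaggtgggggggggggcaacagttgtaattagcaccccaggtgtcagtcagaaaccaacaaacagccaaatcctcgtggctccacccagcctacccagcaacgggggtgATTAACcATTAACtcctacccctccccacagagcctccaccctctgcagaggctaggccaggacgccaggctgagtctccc
Cdx2: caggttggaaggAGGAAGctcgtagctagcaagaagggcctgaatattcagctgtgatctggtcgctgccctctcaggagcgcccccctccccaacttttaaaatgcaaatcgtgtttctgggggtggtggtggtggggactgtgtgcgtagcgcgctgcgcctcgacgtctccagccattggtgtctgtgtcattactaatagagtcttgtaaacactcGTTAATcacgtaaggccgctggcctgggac
The search covered AGATAA for GATA factors and AGGAAG for ETS factors. It also covered GTTAAT, the core of an HNF1 site, and TTTATNG for CDX factors. For TCF/LEF it used ATCAAAG. For HNF4 it used CAAAGTCCA and for SMAD factors GTCTAGAC. P2 held 1 AGATAA and 1 AGGAAG, P1 held 2 copies of GTTAAT, and the *Cdx2* stretch held 1 AGGAAG and 1 GTTAAT. Matches did not overlap each other. Among the 32851 promoter stretches of the same length in the table, 9.99% held AGATAA, 29.5% AGGAAG and 6.43% GTTAAT. The other motifs were found in 9.81% (TTTATNG), 3.21% (ATCAAAG), 0.384% (CAAAGTCCA) and 0.167% (GTCTAGAC) of all stretches. None of those 4 lay in the 3 stretches shown. The stretches of *Pdx1* and *Elf3*, which are not shown, held no match to any motif searched. A match is a description of the letters and not a bound site.

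Library totals ran from 19678507 to 26337318 counts, and the floor of 3 counts lay between 0.114 and 0.152 CPM (counts per 1000000 counts) of the unscaled totals, for counting error only. *Smad4* was the check of the labels and had 119.8, 180.1 and 144.5 CPM in the WT mice against 26.05, 36.83 and 32.13 CPM in the DM mice. *Ctnnb1*, whose mutant allele loses an exon, was not called (log2 fold change -0.15, adjusted p = 0.359, edgeR). The 10 enterocyte markers checked, among them *Alpi*, *Sis* and *Fabp1*, took 4.49% to 4.93% of the counts in WT and 2.82% to 3.13% in DM villi. WT mouse 1 stood apart. Its 7 goblet cell markers took 0.0114% of the counts, against 1.06% to 1.08% in the other WT mice and 0.493% to 0.547% in the DM mice. For 7 of the 8 factors its value was the lowest of the WT group. Results that rest on it are given with and without it. Being the WT male, its sex and its other differences cannot be told apart within that group.

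In mm9, the genome build of the counts, *Hnf4a* (ENSMUSG00000017950) spans chr2:163332544-163398646 on the plus strand and *Hnf4g* (ENSMUSG00000017688) chr3:3508030-3659775 on the plus strand. *Cdx1* (ENSMUSG00000024619) lies at chr18:61178516-61195853 on the minus strand and *Cdx2* (ENSMUSG00000029646) at chr5:148112381-148118846 on the minus strand. *Pdx1* (ENSMUSG00000029644; chr5:148081535-148089584, plus strand) is a neighbor of *Cdx2*, with 22.8 kb between them. *Gata4* (ENSMUSG00000021944) spans chr14:63817759-63890529 on the minus strand, *Gata6* (ENSMUSG00000005836) chr18:11052508-11085633 on the plus strand and *Elf3* (ENSMUSG00000003051) chr1:137150151-137155049 on the minus strand. The counts were made per gene. The strand setting and the treatment of reads that match several genes are not given in the sources used here. *Elf3* shares 162 bp of exon with *Gm16606* and *Gata6* shares 58 bp with *1010001N08Rik*, both on the opposite strand. These partners had only 57 to 92 and 134 to 385 counts per library.

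The CPM given here were scaled with TMM factors in edgeR. Differences are log2 fold changes (DM minus WT) from edgeR's quasi-likelihood test, with standard errors (SE) and Benjamini-Hochberg adjustment over the 13346 genes tested. A gene is called when its adjusted p is under 0.05. Across all genes, 36.8% were called, 19.7% being higher and 17.0% lower in DM villi. Among the 8 factors, *Hnf4a*, *Hnf4g* and *Gata6* fell and *Elf3* rose, whereas *Cdx1*, *Cdx2*, *Gata4* and *Pdx1* did not pass the threshold. With 4 of 8 called, the share is near that of all genes for so small a group. The median log2 fold change of the factors was -0.27, beside 0.02 over all genes tested. In size, their median change was 0.43, beside 0.45 over all genes and 0.94 over the called ones. No factor reached the log2 fold change of 2 that the study used as a threshold, which 5.30% of genes did with an adjusted p under 0.05.

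**Figure D1:**
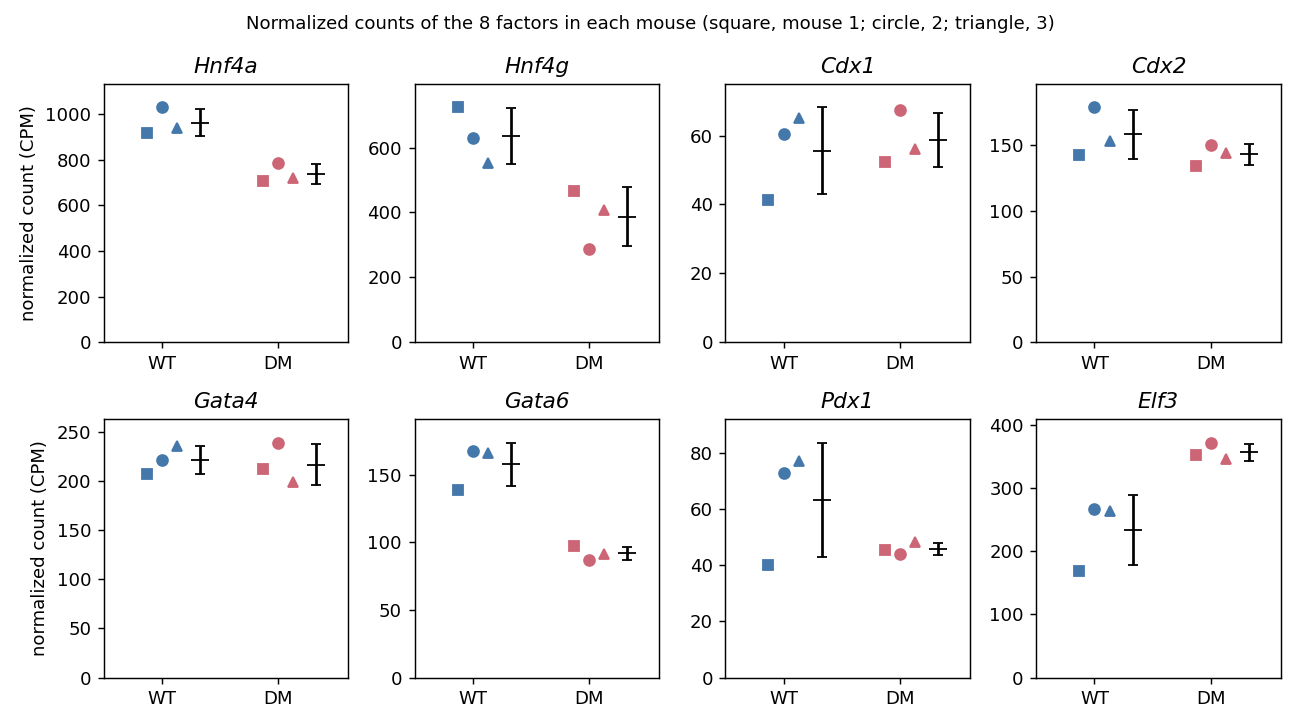
Normalized counts (CPM, from 0 on every axis) of the 8 factors in each mouse, with WT in blue and DM in red. The bars beside the points are the mean and SD of 3 mice. The groups are separate for *Hnf4a*, *Hnf4g*, *Gata6* and *Elf3* and overlap for the other factors, and for *Pdx1* WT mouse 1 (40.0 CPM) lies below the DM mice.

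The HNF4 factors were both lower in DM villi. *Hnf4a* had 917, 1030 and 938 CPM in WT mice 1, 2 and 3 and 704, 786 and 718 CPM in DM mice 1, 2 and 3. Every DM mouse lay under every WT mouse (962 ± 60.2 CPM in WT and 736 ± 43.9 CPM in DM; SD, n = 3). *Hnf4a* fell by 0.39 on the log2 scale (SE 0.111, adjusted p = 0.0256, edgeR), to 0.765 of the WT level with a 95% interval from 0.643 to 0.912. This call was lost when DM mouse 1, DM mouse 3, WT mouse 2 or WT mouse 3 was left out (adjusted p from 0.0533 to 0.0969). *Hnf4g* had 725, 628 and 553 CPM in the WT mice and 466, 288 and 406 CPM in the DM mice. DM mouse 2 was the lowest, and the groups did not overlap. *Hnf4g* fell by 0.72 on the log2 scale (SE 0.187, adjusted p = 0.0175, edgeR), to 0.609 of the WT level (95% interval 0.453 to 0.818), and it kept its call whichever of the 6 mice was omitted. In these bulk libraries, fewer cells that express a gene and less RNA per cell cannot be told apart.

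The GATA factors differed from each other. *Gata6* had 139, 168 and 166 CPM in the WT mice and 96.9, 86.9 and 91.6 CPM in the DM mice, with a gap between the groups larger than the range within either. *Gata6* fell by 0.78 on the log2 scale (SE 0.115, adjusted p = 0.00146, edgeR), which is 0.583 of the WT level (95% interval 0.486 to 0.700). It had the smallest adjusted p of the 8 factors and was called under every scaling, filter, tool and covariate tried and without each mouse. *Gata4* had 207, 221 and 236 CPM in the WT mice and 212, 239 and 199 CPM in the DM mice. The DM range enclosed the WT range, and the log2 fold change was -0.03 (adjusted p = 0.854, edgeR), with a 95% interval for the fold from 0.819 to 1.17. GATA6 is also known from smooth muscle. The 6 mesenchyme markers in the table together took 0.000133% to 0.000281% of the counts in WT and 0.000313% to 0.000554% in DM villi. Most of these counts were of *Vim*, with 35, 42 and 55 counts in WT and 66, 81 and 59 in DM villi, and *Acta2* had 40 counts in DM mouse 1. Only 1 marker passed the filter, and it was not called. None was at 0 in every library, and the part of mesenchyme in the *Gata6* difference was not tested.

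The caudal factors did not pass the threshold. *Cdx2* had 142, 179 and 153 CPM in the WT mice and 134, 150 and 144 CPM in the DM mice, with overlapping groups. The log2 fold change was -0.15 (SE 0.118, adjusted p = 0.362, edgeR), and the 95% interval of the fold, 0.749 to 1.09, covers both a moderate fall and a small rise. The study's stain is of the protein, and it reports sporadic loss of CDX2 in some of the mutant cells. The counts here are RNA of all villus cells together, and loss in some cells was not tested. *Cdx1* had 41.4, 60.5 and 65.1 CPM in the WT mice and 52.4, 67.5 and 56.2 CPM in the DM mice. WT mouse 1 was the lowest and DM mouse 2 the highest. The log2 fold change was 0.08 (adjusted p = 0.768, edgeR), with an interval for the fold from 0.792 to 1.41, and it was -0.10 without WT mouse 1. *Cdx1* is also known as a target of Wnt signaling.

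*Pdx1* depended on WT mouse 1. It had 40.0 CPM in that mouse and 73.0 and 77.1 CPM in WT mice 2 and 3, against 45.4, 43.9 and 48.3 CPM in the DM mice. The DM values were close together (coefficient of variation 4.86%) and the WT values far apart (32.1%). With all mice, the log2 fold change was -0.47 (SE 0.228, adjusted p = 0.146, edgeR). Without WT mouse 1 it was -0.71 with an adjusted p of 0.00167 (edgeR), and *Pdx1* did not pass the threshold when any other mouse was omitted. PDX1 is also a factor of the pancreas, and the 6 pancreatic acinar markers in the table took 0.000568% to 0.0006% of the counts in WT and 0.000777% to 0.00111% in DM villi. Nearly all of these counts were of *Cela1*, with 152, 96 and 118 counts in WT and 149, 167 and 217 in DM villi. Only 1 marker passed the filter, and it was not called. The part of pancreatic RNA in the *Pdx1* values was not tested.

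*Elf3* was the factor that rose. It had 169, 267 and 264 CPM in the WT mice and 352, 372 and 346 CPM in the DM mice, so that even the lowest DM mouse was above the highest WT mouse. *Elf3* rose by 0.61 on the log2 scale (SE 0.174, adjusted p = 0.0245, edgeR), a 1.53-fold change with a 95% interval from 1.16 to 2.01. Its difference was 0.42 without WT mouse 1 (adjusted p = 0.0166, edgeR). The call was lost without DM mouse 1, 2 or 3 (adjusted p from 0.0584 to 0.0788), with log2 fold changes of 0.58 to 0.64 in those fits. The 4 factors whose groups did not overlap were thus those called, and 52.4% of all genes tested had groups that did not overlap (28.1% higher and 24.2% lower in DM).

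Markers of other epithelial cells moved with the groups. The 8 stem cell markers took 0.00798% to 0.0194% of the counts in WT and 0.0343% to 0.0453% in DM villi, and 4 of them rose. All 6 proliferation markers rose, with 0.00552% to 0.00793% in WT and 0.0187% to 0.0227% in DM villi. Tuft cell markers fell in 5 of 5 tested (0.00839% to 0.0117% in WT and 0.00129% to 0.00152% in DM). Enteroendocrine markers fell in 7 of 9 and rose in 1, with 0.0202% to 0.0321% in WT and 0.0109% to 0.0119% in DM villi. Of the 10 enterocyte markers, 7 fell and 1 rose. In each of these lists the groups' shares did not overlap, and no marker was at 0 in every library. The groups overlapped in the shares of goblet, Paneth (0.000721% to 0.144% in WT and 0.0166% to 0.0263% in DM) and lymphocyte markers (0.00784% to 0.0160% and 0.00792% to 0.0121%). In all 3 lists the overlap came from WT mouse 1, which had the lowest share of the 6 mice. Without it, the WT shares were 1.06% and 1.08% for goblet, 0.0848% and 0.144% for Paneth and 0.0151% and 0.0160% for lymphocyte markers, each above every DM mouse. By gene and with all mice, 1 of 7 goblet markers was called higher and 0 lower. Of the 6 Paneth markers 0 were called, and 2 of 7 lymphocyte markers fell. *Fcgbp* had the most goblet counts and, with *Muc2* and *Zg16*, lay below WT mice 2 and 3 in every DM mouse. *Spink4*, *Agr2* and *Clca1* lay above WT mice 2 and 3 in every DM mouse, and *Tff3* overlapped. The part of these shifts in the differences of the 8 factors was not tested.

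These changes are relative to the scaling of the libraries. With library size alone in place of TMM, the median log2 fold change over all genes moved from 0.02 to 0.22, and the split of the calls from 2632 higher and 2273 lower to 3732 higher and 1425 lower. On that scale *Elf3* (0.80) and *Gata6* (-0.59) were called, and *Hnf4a* (-0.19, adjusted p = 0.193) and *Hnf4g* (-0.52, adjusted p = 0.0546) were not (edgeR). *Cdx2* and *Gata4* had positive log2 fold changes there, 0.045 and 0.16.

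**Figure D2:**
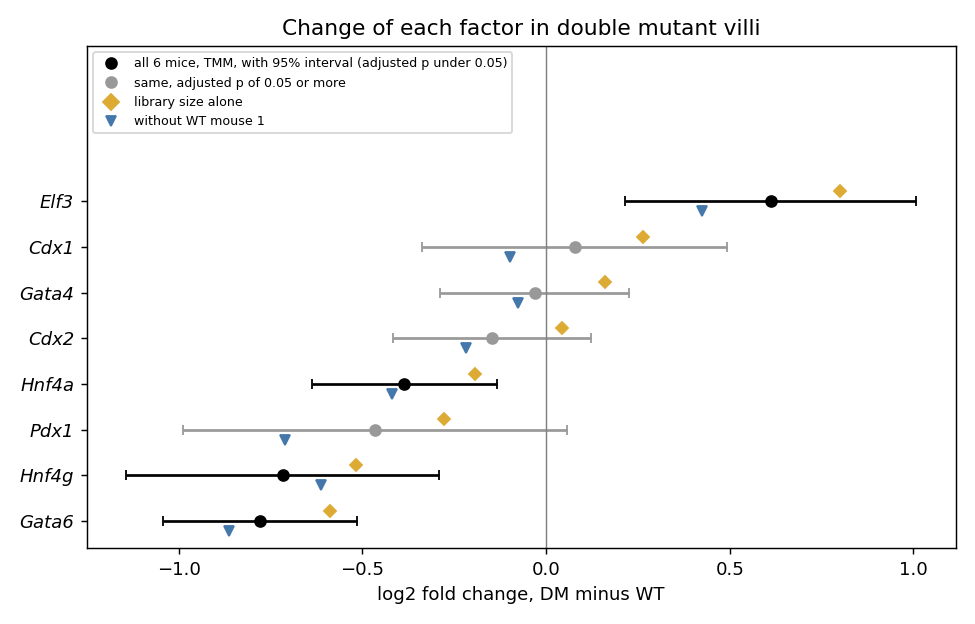
Log2 fold change (DM minus WT) of each factor with its 95% interval (black, adjusted p under 0.05; grey, not). Diamonds show the value with library size alone and triangles the value without WT mouse 1. The diamonds lie to the right of every estimate by about the shift of all genes, and the triangle of *Pdx1* (-0.71) lies farthest from its estimate of -0.47.

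To ask whether relatives changed together, the ratio within each family pair was compared, a measure in which the scaling of a library cancels. The log2 ratio of *Gata4* to *Gata6* was 0.58, 0.40 and 0.51 in the WT mice and 1.13, 1.46 and 1.12 in the DM mice. All DM mice were above all WT mice, and the groups differed by 0.74 (two-sided p = 0.1 by an exact permutation test, which cannot go lower with 3 mice a group; adjusted p = 0.3 over 3 pairs). Per kilobase of exon, *Gata6* made up 45.1% to 48.2% of the pair in WT and 30.8% to 36.0% in DM villi. The log2 ratio of *Hnf4a* to *Hnf4g* was 0.34, 0.71 and 0.76 in the WT mice and 0.59, 1.45 and 0.82 in the DM mice. These groups overlapped, with a difference of 0.35 (exact permutation test, two-sided p = 0.4, adjusted p = 0.4). Most of it came from DM mouse 2, without which the difference was 0.10. For *Cdx1* to *Cdx2* the groups overlapped too, with a difference of 0.24 (exact permutation test, two-sided p = 0.3, adjusted p = 0.4).

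Levels of different genes were compared per kilobase of exon (RPKM, from the TMM-scaled CPM). In WT villi, *Hnf4a* was highest (192 ± 12.0 RPKM; SD, n = 3), followed by *Hnf4g* (146 ± 19.7), *Elf3* (117 ± 27.8), *Cdx2* (70.0 ± 8.25), *Gata4* (56.6 ± 3.67), *Gata6* (49.3 ± 5.07), *Cdx1* (31.8 ± 7.19) and *Pdx1* (14.7 ± 4.71). Among neighbors in this order, only *Hnf4g* and *Elf3* had overlapping ranges by this length. In DM villi *Elf3* was highest (178 ± 6.86 RPKM), above *Hnf4a* (147 ± 8.74) without overlap by this length. *Hnf4g* (88.9 ± 20.9), *Cdx2* (63.2 ± 3.63) and *Gata4* (55.4 ± 5.22) followed, each overlapping the next. *Cdx1* (33.6 ± 4.49) and *Gata6* (28.7 ± 1.57) also overlapped, and *Pdx1* (10.6 ± 0.516) was lowest. With the length of the longest transcript in place of all exons, *Gata4* came before *Cdx2* in DM villi, and in WT villi their ranges overlapped as well (63.0 to 79.1 RPKM for *Cdx2* and 61.0 to 69.4 for *Gata4*). By that length, *Elf3* (173 to 186 RPKM) and *Hnf4a* (161 to 180.2) overlapped in DM villi.

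**Figure D3:**
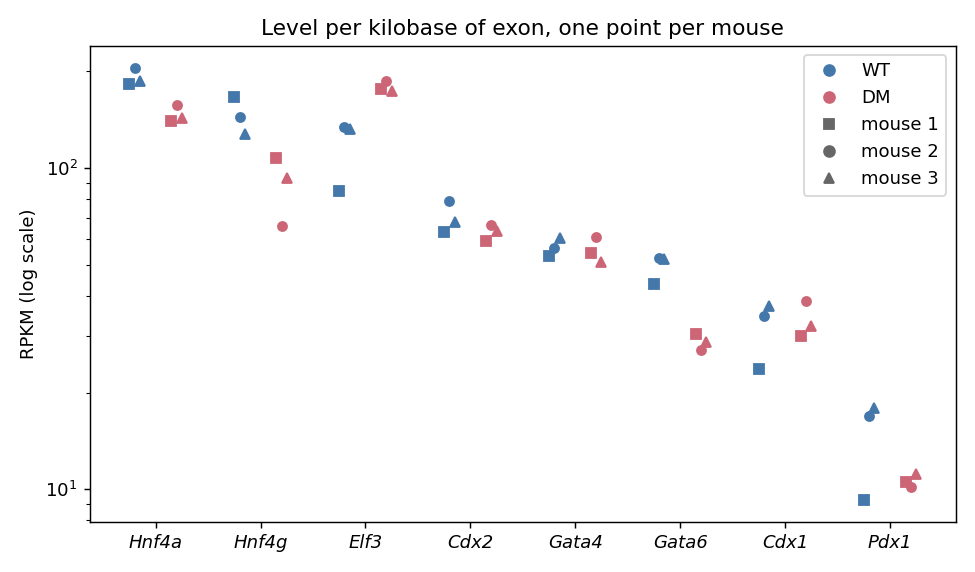
Level of each factor per kilobase of exon (RPKM, log scale) with 1 point per mouse, WT in blue and DM in red, ordered by the WT mean. *Hnf4a* leads in WT villi (mean 192 RPKM) and *Elf3* in DM villi (178 RPKM), and *Pdx1* is lowest in both.

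Among 19 relatives and known partners of these factors, 13 were tested, 1 rose and 3 fell. That is 30.8% called, beside 36.8% of all genes tested. *Ehf*, an epithelial ETS factor like *Elf3*, had 19.0 ± 2.75 CPM in WT and 31.0 ± 2.98 CPM in DM villi and rose (SD, n = 3; log2 fold change 0.71, adjusted p = 0.00668, edgeR). The broadly expressed ETS factors *Elf1* and *Elf4* fell, with log2 fold changes of -0.72 (adjusted p = 0.00476) and -0.69 (adjusted p = 0.00633, both edgeR). *Gata5*, the third GATA factor of the gut epithelium and the other gene that fell, changed by -0.36 (adjusted p = 0.028, edgeR). With library size alone, the listed genes in all had 14 higher and 16 lower, against 11 and 30 with TMM. Among these relatives the median log2 fold change was -0.01. In a list of 20 other transcription factors of enterocytes or crypt cells, 4 rose and 7 fell (55% called), with a median of 0.04. *Sox9*, a factor of crypt progenitors, had 6.16, 8.49 and 11.8 CPM in WT and 37.7, 25.0 and 39.1 CPM in DM villi (log2 fold change 1.95, adjusted p = 0.00112, edgeR). *Ppara*, a nuclear receptor for fatty acids, rose by 1.05 (adjusted p = 0.00714, edgeR). *Klf4*, a factor of differentiated cells, fell from 597 ± 17.4 to 103 ± 13.5 CPM. *Maf*, a leucine zipper factor of villus enterocytes, fell from 658 ± 113 to 183 ± 35.9 CPM (log2 fold changes of -2.53 and -1.85, adjusted p = 1.56e-05 and 0.000286, edgeR). These changes exceeded those of any of the 8 factors in size.

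Genes known to depend on HNF4, or on GATA factors and PDX1, changed in both directions, whereas those called in the CDX list all fell. Of 18 genes known as dependent on HNF4, 3 rose and 8 fell, with a median log2 fold change of -0.31. That is 61.1% called, beside 36.8% of all genes tested. *Apoc3*, an apolipoprotein, had 1021, 411 and 477 CPM in WT and 125, 125 and 121 CPM in DM villi (log2 fold change -2.36, adjusted p = 0.00266, edgeR). WT mouse 1 was the highest for *Apoc3*, and the log2 fold change was -1.85 without it. *Acaa2*, an enzyme of fatty acid oxidation, rose by 1.18 on the log2 scale, with 235 ± 93.8 CPM in WT and 533 ± 50.6 CPM in DM villi (adjusted p = 0.0101, edgeR). *Ttr*, a carrier of thyroid hormone and retinol, had only 0.541, 0.109 and 0.657 CPM in WT and 1.17, 1.95 and 1.38 CPM in DM villi (log2 fold change 1.75, adjusted p = 0.0403, edgeR). For 4 of the 6 mice, omitting that mouse ended its call. *Fabp1*, a fatty acid binding protein and the remaining gene that rose, had 3072, 2007 and 2116 CPM in WT and 2958, 5482 and 4285 CPM in DM villi. Its groups overlapped, and its call (log2 fold change 0.82, adjusted p = 0.0331, edgeR) likewise ended when any of 4 mice was omitted. With sex as a covariate, neither *Ttr* (adjusted p = 0.0522) nor *Fabp1* (adjusted p = 0.0529, both edgeR) was called.

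Of 12 genes known as dependent on CDX factors, 0 rose and 7 fell, with a median of -0.39. That is 58.3% called, beside 36.8% of all genes tested, of which 17.0% fell. *Cdx1* and *Cdx2* themselves were not called. *Lct*, the lactase gene, had 3104, 2896 and 2621 CPM in WT and 828, 432 and 830 CPM in DM villi (log2 fold change -2.04, adjusted p = 0.000704, edgeR). *Sis*, sucrase-isomaltase, had 5807, 6648 and 4367 CPM in WT and 2600, 1611 and 1812 CPM in DM villi (log2 fold change -1.48, adjusted p = 0.0016, edgeR). The other genes that fell were *Vil1* (-0.85), *Heph* (-0.70), *Cdh17* (-0.40), *Gucy2c* (-0.38) and *Gpa33* (-0.33; adjusted p from 0.0012 to 0.0335, edgeR). *Alpi*, *Lct*, *Sis*, *Vil1*, *Fabp1*, *Fabp2*, *Apoa1* and *Apoa4* of these lists are also among the enterocyte markers, whose share of the counts was lower in every DM mouse, as given above. The part of that shift in these counts was not tested.

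Of 11 proximal genes known to depend on GATA factors or PDX1, or to mark the duodenum, 2 rose and 4 fell, with a median of -0.52. That is 54.5% called, beside 36.8% of all genes tested. *Ada*, adenosine deaminase, whose duodenal enhancer is known to bind PDX1, GATA4 and CDX2, had 1941, 2397 and 2444 CPM in WT and 53.3, 41.3 and 78.7 CPM in DM villi. *Ada* fell by 5.29 on the log2 scale (SE 0.27, adjusted p = 1.94e-05, edgeR). *Cybrd1*, the duodenal ferric reductase, had 23.1, 69.6 and 90.8 CPM in WT and 641, 431 and 444 CPM in DM villi. *Cybrd1* rose by 3.05 (SE 0.532, adjusted p = 0.00787, edgeR), so that these 2 duodenal genes moved in opposite directions. Among ileal genes, several of which GATA4 is known to hold down in the proximal intestine, 5 were tested, 0 rose and 3 fell (60% called). *Cubn* and *Amn*, the subunits of the receptor for intrinsic factor and vitamin B12, had log2 fold changes of -2.41 (adjusted p = 0.0447) and -1.07 (adjusted p = 0.015, both edgeR). The call of *Cubn* ended when any of 4 mice was omitted and that of *Amn* without DM mouse 1. With all mice, the call of *Cubn* also ended with library size alone (adjusted p = 0.0515), without the low-count filter (0.110) and with sex as a covariate (0.0770, all edgeR). The third was *Osta*, a subunit of the basolateral bile acid transporter. *Fabp6*, the ileal bile acid binding protein, had at most 3 counts in any mouse.

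**Figure D4:**
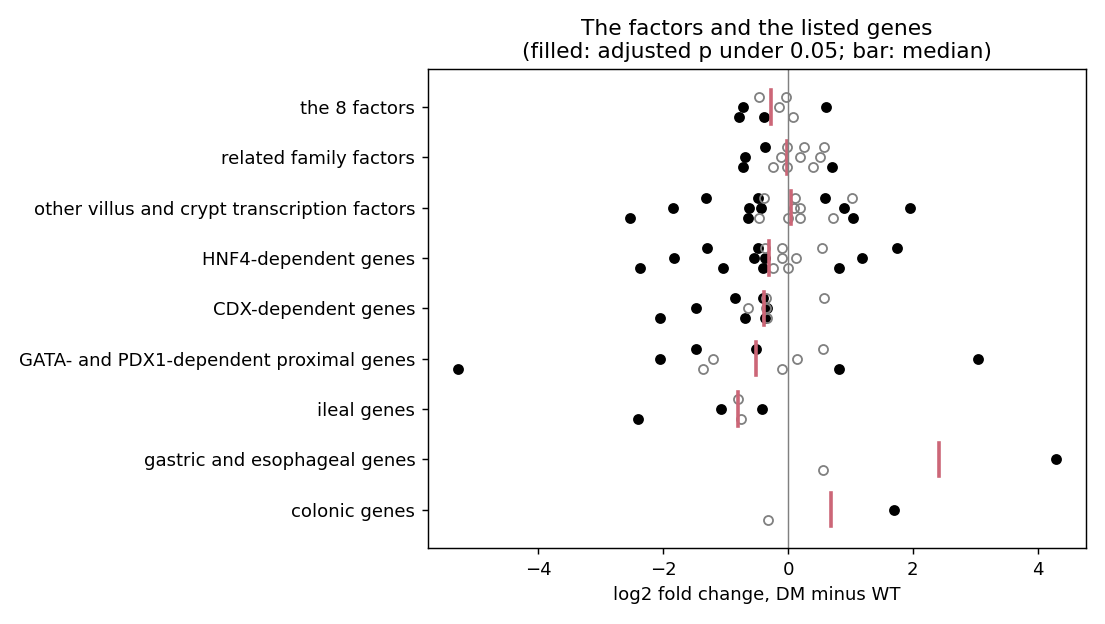
Log2 fold change (DM minus WT) of the 8 factors and of each list of related genes, with 1 circle per tested gene (filled, adjusted p under 0.05) and a bar at the median. The 8 factors lie between -0.78 and 0.61, and *Ada* at -5.29 and *Anxa10* at 4.29 are the outermost points.

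Most genes of other gut regions were near the floor in both groups. Of 10 genes of the stomach and esophagus in the table, 8 did not pass the filter and had at most 12 counts in any mouse. *Anxa10*, an annexin of the gastric epithelium, was the exception, with 5, 53 and 30 counts in WT and 814, 625 and 428 counts in DM villi. *Anxa10* rose by 4.29 on the log2 scale (SE 0.753, adjusted p = 0.00771, edgeR). Its size varied, with log2 fold changes of 5.12 without WT mouse 2, 3.73 without WT mouse 1 and 4.94 by limma-voom, and it was called in each of these fits. *Vsig1*, a junction protein of the stomach, was not tested and had 0, 0 and 2 counts in WT and 6, 11 and 8 counts in DM villi. *Vsig1* was picked out after its values were seen, and the counts of every other untested gene of this list overlapped between the groups. *Muc6*, the other gene tested, had 9 to 31 counts in WT and 22 to 53 in DM villi and was not called. Of 6 colonic genes in the table, 4 did not pass the filter, with at most 16 counts in any mouse. Among them *Hoxb13*, also picked out afterwards, had 11, 4 and 16 counts in WT and 1, 0 and 1 in DM villi. *Aqp4*, a water channel, rose by 1.69 on the log2 scale, with 1.12, 2.39 and 2.07 CPM in WT and 5.96, 6.40 and 5.65 CPM in DM villi (adjusted p = 0.00372, edgeR). Genes of these lists that are not in the table were not analysed here.

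The genes whose log2 CPM followed each factor most closely over the 6 libraries were ranked among 7911 others with a mean of at least 10 CPM. For *Hnf4a* these were *Ksr1* (Pearson's r 0.998) and *Crebzf* (0.997), and for *Hnf4g* *Gmcl1* and *Pag1* (both 0.995). *Gata6* was followed by *Abhd2* (0.999) and *D1Ertd622e* (0.996), and *Elf3* by *Gm13443* and *1110032A04Rik* (both 0.998). *Pdx1* was closest to *Cd7* (0.993) and *Cldn23* (0.991). The uncalled *Gata4* was closest to *B3gnt7* (0.976) and *Rab28* (0.964), *Cdx1* to *Slfn2* (0.986) and *Gm9846* (0.975), and *Cdx2* to *Itga3* (0.969) and *2310046K01Rik* (0.965). These values describe 6 libraries that share 2 group means and are the highest of many, so they carry no test.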

How the data were processed

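RNA of duodenal villus epithelium was sequenced after enrichment of polyadenylated transcripts, with 1 library per mouse. Per the labels and the study's methods, the authors mapped reads with HISAT2 to mm9. They deposited the raw counts that featureCounts gave for each gene, without normalization or pooling. GENCODE models on mm9 supplied symbols, coordinates and exon lengths for 20032 of 20073 Ensembl identifiers. Numbered transcripts outside the annotation stayed in the fits. Samples were grouped by the labels.

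Counts were filtered with filterByExpr, scaled by TMM and tested with edgeR 4.0.16 (robust glmQLFit and glmQLFTest; R 4.3.3), with no covariate and Benjamini-Hochberg adjustment over 13346 genes. Each SE was derived from the fold change and its F statistic. The study used DESeq2, which is an alternative here (1.42.0), as is limma-voom (3.58.1). The tests were first run on simulated counts of known fold changes. Log2 CPM used a prior count of 2. The other alternatives were size factors, filters, a replicate block, a sex covariate, fold thresholds, transcript length and leaving out each mouse. The named genes were the 8 factors, *Smad4*, *Ctnnb1*, the 2 called genes that changed most in each direction per list (at least 1 CPM in the higher group) and the 2 genes most like each factor; any list gene named besides was chosen after its values were seen. Some listed genes count in the totals but are not reported here by name. The members and lists were chosen with earlier results of these data known, and the motifs with the promoter sequences in view. No molecular identifiers are described, so floors cover counting error only.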

Additional observations from a re-analysis of the deposited data

Results flagged for a closer look

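*Pdx1* was the only one of the 8 factors whose difference ran one way in the males and the other way in every pair of females. In the males, with 1 mouse per group, DM minus WT was 0.18 on the log2 scale (40.0 CPM in the WT and 45.4 CPM in the DM mouse). In the females, with 2 mice per group, it was -0.70 on average and lay between -0.81 and -0.60 in the 4 pairings. The difference between the sexes was not tested. The WT male is also the library with few goblet cell transcripts, and its sex and that difference cannot be told apart.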

How the results depend on the processing

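Of the 8 factors, 4 were called with all mice. Their number was 2 with library size alone and 0 with a log2 fold threshold of 1 or 2. It was 2 to 5 without 1 mouse (2 without DM mouse 1 or DM mouse 3, 5 without WT mouse 1). The number stayed within 1.5 times under the other alternatives. Calls over all genes moved too, from 4905 of 13346 to 5157 with library size alone. They were 4192 of 13676 without DM mouse 1, 3626 of 13700 without DM mouse 3 and 5144 of 13769 without WT mouse 1. At a log2 fold threshold of 1, 1454 genes were called higher and 832 lower. *Gata6* was called under every scaling, filter, tool and covariate and without each mouse. *Cdx2* and *Gata4* changed sign with library size alone (0.045 and 0.16). Without 1 mouse, *Cdx1* ran from -0.10 to 0.20, *Cdx2* from -0.22 to -0.052 and *Gata4* from -0.11 to 0.031. Of the listed genes, 76 were tested, 11 higher and 30 lower. The lower ones numbered 16 with library size alone, 19 with the replicate block and 19 to 28 without 1 mouse (19 without DM mouse 2), the higher ones 9 to 15. The study describes replicates matched for age and sex, and the sexes matched by number here. In the counts no pairing by number was seen. Deviations of same-numbered mice correlated at 0.02, -0.11 and 0.01, and WT mice 2 and 3 correlated better with another number. With 3 mice a group, these correlations cannot tell whether the mice were matched. With the replicate block 3834 of all genes were called, against 4905, and *Hnf4a* (adjusted p = 0.0678), *Ttr* (0.0860), *Fabp1* (0.0912) and *Cubn* (0.159, all edgeR) were not. *Smad4* stayed between -2.36 and -2.04 in all fits. Without 1 mouse, the pair differences ran from 0.10 to 0.53 (*Hnf4a* to *Hnf4g*), 0.11 to 0.38 (*Cdx1* to *Cdx2*) and 0.63 to 0.80 (*Gata4* to *Gata6*). By the longest transcript, *Hnf4a* had 220.4 RPKM in WT and 169 in DM villi and *Gata4* 65.1 and 63.7. The cause of these changes was not tested. With 3 mice a group, the intervals of the 8 factors rest on the spread between mice, and depth limits the stomach and colon genes that had only a few counts.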
